A study of Mus musculus with 7 samples.

Results

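Chromatin that was open at the pre-proB stage of mouse B-cell development and not at later stages is described here. ATAC-seq cuts accessible DNA and sequences the ends of the fragments, and a peak is a stretch where the fragments pile up above the background of the library. The overlapping peaks of 7 lists were merged into 145247 union regions. Of these, 16647 (11.5%) had a peak in all 3 pre-proB libraries and in none of the 4 proB and preB libraries, and they are called pre-proB-only regions. The regions were chosen by the presence or absence of called peaks, so their absence from later libraries is the rule that selected them and not a result. They made up 19.9% of the 83444 regions open in all 3 pre-proB libraries.

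Pre-proB cells are the earliest B220+ stage in the bone marrow and have not yet completed heavy chain rearrangement. Ebf1 and Pax5, the transcription factors that commit cells to the B lineage, act around the step from pre-proB to proB, when genes of the B lineage open and genes of other lineages are shut down. B220 is also carried by plasmacytoid dendritic cells and by some innate lymphoid cells. Open regions away from promoters are often enhancers, where factors such as RUNX, PU.1, E-proteins, EBF1 and IRF proteins bind short DNA sequences.

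The study asked how the ETS-family factor Erg acts in early B cells. Sorted progenitors of 7 groups gave 1 library each. WT cells (genotype Ergfl/fl, floxed Erg without Cre) were taken as pre-proB, proB and preB cells, and Erg KO pre-proB cells came from Rag1CreT/+;Ergdelta/delta mice, in which Cre is active from the common lymphoid progenitor onwards. Rescue pre-proB, proB and preB cells came from Rag1CreT/+;Ergdelta/delta;IgHVH10tar mice, which also carried a productively rearranged heavy chain allele, so 2 of the 3 pre-proB libraries lacked Erg. By the definitions of the study, cells positive for NK1.1 or CD11c were left out of each of the 3 sorted stages. No group had a second library, so no test between groups could be made and the spread between mice is unknown.

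The stage of the Rescue libraries rests on their titles, and their source names give another stage for each of the 3. When the library with the source name pre-proB was used in place of the one with that title, 28 regions met the rule in place of 16647. Peak lists held 76465 to 105649 peaks per library, with a background pileup (the mean number of overlapping fragments expected by the peak caller) of 3.49 to 4.6. The weakest called summits had a pileup of 10 to 12 fragments, so a region with no called peak is not shown to be closed.

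Promoter peaks of defining genes were compared with the stage labels, as the highest summit pileup of a region within 1000 bp of a transcription start site (TSS). Pax5 had a promoter pileup of 18 in WT pre-proB, none in Erg KO or Rescue pre-proB, and 133 to 221 in the later libraries. Ebf1 was open at all stages, at 110, 132 and 131 in WT, Erg KO and Rescue pre-proB and at 210 to 318 later. Cd3e, a T-cell receptor subunit, had no promoter peak in any library. Siglech, a receptor of plasmacytoid dendritic cells, had promoter pileups of 522, 561 and 633 in the pre-proB libraries against 100 to 263 later, and Itgam, a myeloid integrin, had 139 to 166 against 21 to 38. The same order was seen for Flt3 (635 to 722 against 481 to 627) and Il7r (205 to 282 against 134 to 169). It was also seen for the B-lineage genes Dntt (504 to 631 against 159 to 249) and Blnk (247 to 270 against 177 to 233). Some genes outside the B lineage had the opposite order. Csf1r, the macrophage colony-stimulating factor receptor, had 37 to 49 in the pre-proB libraries and 62 to 100 later, and Gata3, a T-cell and innate lymphoid factor, had 265 to 348 and 422 to 530. The promoter of Id2 was at 491 to 626 and 553 to 662, with overlapping ranges. The part of other B220+ cell types in the pre-proB-only regions was not tested.

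Regions were ranked by strength on their lowest percentile, within the 3 pre-proB lists, of the −log10 q given by the peak caller. The sequences of the strongest regions and of the strongest region beside each of the 4 genes with the most regions are given first, because they show what the later counts of sequence patterns are made from. Each is 200 bp of the plus strand of GRCm38, taken from the RefSeq assembly around the WT pre-proB summit and named by the gene with the nearest coding TSS. Capitals mark exact matches, on either strand, to any of 11 patterns of letters, each named for a family of factors known to bind such a sequence. The ETS pattern was CCGGAAGT and the pattern of PU.1, an ETS factor of myeloid and early lymphoid cells, was GAGGAAGT. For RUNX factors the letters TGTGGTT were searched, and for E-proteins the E-box CAGCTG. The pattern of EBF1 was TCCCNNGGG, where N is any base. GATA factors were given AGATAAG, whereas CTTTGAT stood for TCF factors of the Wnt pathway. The pattern of AP-1, the Fos and Jun dimer, was TGANTCA. The IRF pattern of interferon regulatory factors was GAAANNGAA, the C/EBP pattern TTNNGCAA and the OCT pattern of octamer-binding factors ATGCAAAT. A match describes letters in the window and does not show that a factor bound there. The 6 strongest regions were:
Gcnt2 (chr13:40940140-40940339): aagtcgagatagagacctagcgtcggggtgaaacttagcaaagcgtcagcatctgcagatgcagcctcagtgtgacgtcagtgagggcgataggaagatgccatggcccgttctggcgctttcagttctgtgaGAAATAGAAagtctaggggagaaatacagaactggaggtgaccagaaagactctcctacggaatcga
Aqr (chr2:114137643-114137842): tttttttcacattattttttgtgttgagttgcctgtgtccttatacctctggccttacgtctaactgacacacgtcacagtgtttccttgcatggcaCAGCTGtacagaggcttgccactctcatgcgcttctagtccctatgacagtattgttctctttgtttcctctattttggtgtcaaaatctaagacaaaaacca
F830045P16Rik (chr2:129545642-129545841): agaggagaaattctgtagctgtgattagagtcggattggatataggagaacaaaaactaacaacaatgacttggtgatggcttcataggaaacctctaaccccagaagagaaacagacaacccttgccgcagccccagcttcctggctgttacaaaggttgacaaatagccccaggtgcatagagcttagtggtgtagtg
Gpc1 (chr1:92841530-92841729): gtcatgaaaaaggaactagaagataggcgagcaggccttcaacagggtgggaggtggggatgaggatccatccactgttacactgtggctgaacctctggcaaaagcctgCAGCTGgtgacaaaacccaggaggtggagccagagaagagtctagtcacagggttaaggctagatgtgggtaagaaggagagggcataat
Pfkp (chr13:6599657-6599856): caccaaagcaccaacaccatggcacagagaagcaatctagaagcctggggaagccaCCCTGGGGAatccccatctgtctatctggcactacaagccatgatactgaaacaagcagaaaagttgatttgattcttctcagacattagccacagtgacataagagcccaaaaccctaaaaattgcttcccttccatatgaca
Itpripl2 (chr7:118484111-118484310): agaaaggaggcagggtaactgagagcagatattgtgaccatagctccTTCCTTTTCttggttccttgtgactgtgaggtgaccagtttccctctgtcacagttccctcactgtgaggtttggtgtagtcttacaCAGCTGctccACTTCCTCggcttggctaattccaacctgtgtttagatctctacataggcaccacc

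Beside these 4 leading genes the strongest regions read:
Runx2 (chr17:44711177-44711376): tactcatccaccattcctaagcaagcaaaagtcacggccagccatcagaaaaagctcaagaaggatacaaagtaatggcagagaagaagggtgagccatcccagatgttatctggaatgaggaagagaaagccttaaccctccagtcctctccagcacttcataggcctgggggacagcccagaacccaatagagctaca
Slco3a1 (chr7:74442580-74442779): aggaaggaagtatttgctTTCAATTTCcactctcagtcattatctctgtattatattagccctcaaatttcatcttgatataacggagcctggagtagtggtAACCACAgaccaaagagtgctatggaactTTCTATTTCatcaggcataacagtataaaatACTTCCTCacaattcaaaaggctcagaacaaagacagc
Id2 (chr12:25303503-25303702): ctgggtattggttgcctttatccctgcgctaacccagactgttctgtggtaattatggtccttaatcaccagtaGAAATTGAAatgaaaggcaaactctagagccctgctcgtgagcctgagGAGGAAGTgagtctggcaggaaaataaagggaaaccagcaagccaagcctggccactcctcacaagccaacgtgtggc
Bcl11a (chr11:24085147-24085346): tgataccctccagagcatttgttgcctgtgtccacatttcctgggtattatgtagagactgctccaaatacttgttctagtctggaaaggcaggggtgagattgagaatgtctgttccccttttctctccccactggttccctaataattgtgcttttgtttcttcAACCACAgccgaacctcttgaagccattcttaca

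Among these 10 windows the E-box pattern stood in those of Aqr, Gpc1 and Itpripl2, and the RUNX pattern in those of Slco3a1 and Bcl11a. The IRF pattern was present at Gcnt2, Itpripl2, Slco3a1 and Id2, and the last 3 of these also held the PU.1 pattern. The EBF1 pattern was found at Pfkp. The windows at F830045P16Rik and Runx2 held none of the 11 patterns.

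The strongest region lay in intron 1 of Gcnt2, which encodes a glycosyltransferase, at chr13:40939930-40940709 and 6412 bp from the nearest coding TSS. Its summit pileup was 366 in WT, 328 in Erg KO and 336 in Rescue pre-proB, and its fold over background was 71.1, 60.3 and 60.2. The region in intron 16 of Aqr, a splicing helicase gene (chr2:114136846-114138501), had pileups of 276, 280 and 291 in the same order. An intergenic region 9153 bp from F830045P16Rik (chr2:129545414-129546095) had 281, 264 and 275. These 3 regions differed little between the 3 genotypes. The region in intron 1 of Gpc1, a cell-surface proteoglycan gene (chr1:92841298-92841991), had pileups of 211, 231 and 259. Intron 14 of Pfkp, which encodes platelet-type phosphofructokinase, held a region (chr13:6599447-6600210) with 208, 266 and 303, and an intergenic region 7760 bp from Itpripl2 (chr7:118483874-118484555) had 206, 293 and 338. In these last 3 regions WT was lowest and Rescue highest. The remaining 6 of the 12 strongest regions lay nearest to Pign, 4930564D02Rik, Kctd18, Dlg1, Arrdc4 and Gfra3, with WT pileups of 192 to 205.

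Most pre-proB-only regions were far weaker than these. Median summit pileup was 28 in WT, 33 in Erg KO and 36 in Rescue pre-proB, with quartiles of 21 and 41, 24 and 49, and 27 and 54. Ranked within each list by −log10 q, the median region stood at percentile 30.8, 37.9 and 39.9. Only 3, 3 and 4 of the 16647 regions reached the top 10% of the WT, Erg KO and Rescue lists. Regions open in all 7 libraries had median percentiles of 68.1, 70.0 and 70.8. The median width of the regions was 457 bp, near the 515 bp of all union regions. It was 999 bp for the regions open in all 7, which merge peaks of 7 lists. In 9730 of them (58.4%) the pileup was at least 24 in all 3 pre-proB libraries, 2 times the 12 fragments of the weakest called summits, while the others lay closer to that limit. A −log10 q of at least 10 in all 3 lists was reached by 8975 (53.9%). The 3 summits of a region spread over a median of 55 bp, and in 7541 regions (45.3%) they lay within 50 bp. Merging overlapping peaks itself keeps the summits of a region near each other, so this spread is a description only.

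**Figure D1:**
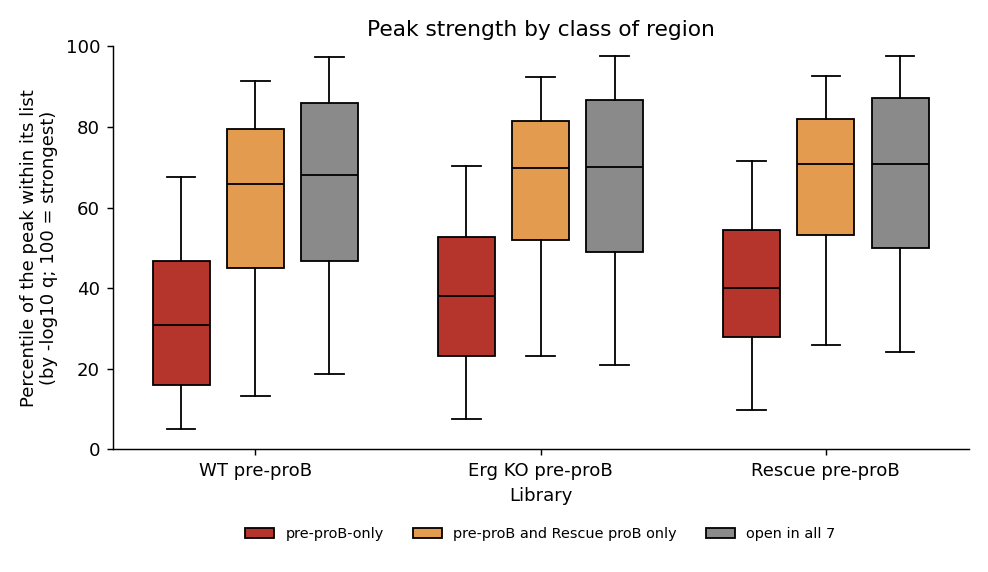
Percentile of the strongest peak of each region within the list of WT, Erg KO or Rescue pre-proB (vertical axis, 100 is the strongest peak by −log10 q), for pre-proB-only regions, regions kept in Rescue proB alone and regions open in all 7 libraries. Boxes give quartiles and median and whiskers the 5th and 95th percentiles over regions; pre-proB-only medians were 30.8, 37.9 and 39.9.

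At the edge of the rule the values were small on both sides. Just inside it were regions near Bcr (pileups of 19, 16 and 13 in WT, Erg KO and Rescue pre-proB), Ostc (19, 20 and 13) and St8sia4 (17, 13 and 20). Just outside was a region near Ets1 with 21, 17 and 20 that had a Rescue proB peak of 10 fragments. Regions near Zfp362 (19, 31 and 37) and Ankrd44 (16, 22 and 21) were left out by a peak of 11 fragments in Rescue preB and Rescue proB. Regions kept out by 1 later library were unevenly spread over the 4 libraries. There were 6428 such regions with a peak in Rescue proB alone, 1565 in WT proB, 585 in Rescue preB and 175 in WT preB. The Rescue proB peaks of the 6428 regions were low in that list, with a median percentile of 23.4, whereas their median percentile in the 3 pre-proB lists was 65.9 to 70.8. On the pre-proB side, 4992 regions were missing from WT alone, 1124 from Erg KO alone and 661 from Rescue alone.

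Fold over background differed little between the 3 genotypes. The median ratio of the Erg KO to the WT fold was 1.08, and 10576 regions (63.5%) were higher in Erg KO. For Rescue over WT the median ratio was 1.16, with 12372 regions (74.3%) higher. Regions open in all 7 libraries gave 1.02 and 1.10, lower values in the same direction. More than 2 times the WT fold was seen in 102 regions (0.613%) in Erg KO and 218 (1.31%) in Rescue. Less than 1 in 2 of it was seen in 11 (0.0661%) and 4 (0.024%). Regions open in all 7 had the opposite order in these larger changes. Among them 45 (0.0969%) and 90 (0.194%) were higher, and 175 (0.377%) and 160 (0.345%) lower. The rule needs a peak in all 3 libraries, which removes regions lost without Erg, so these ratios do not describe what Erg deletion does. The library backgrounds were 4.16, 4.46 and 4.6, and their part in the ratios was not tested.

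Pre-proB-only regions lay mostly away from promoters. Promoter windows reached 1000 bp to each side of every annotated TSS and overlapped 1012 regions (6.08%, 95% Wilson interval 5.73 to 6.45%). Among regions open in all 7 libraries the share was 32.8% (32.3 to 33.2%), and among all other union regions 17.5% (17.3 to 17.7%). The 7543 regions open in all 4 proB and preB libraries and in no pre-proB library were closer, at 9.05% (8.43 to 9.72%). Introns held 49.8% of the pre-proB-only regions, exons 8.55% and intergenic sequence 35.6%. All these intervals cover counting error only and treat regions as independent.

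**Figure D2:**
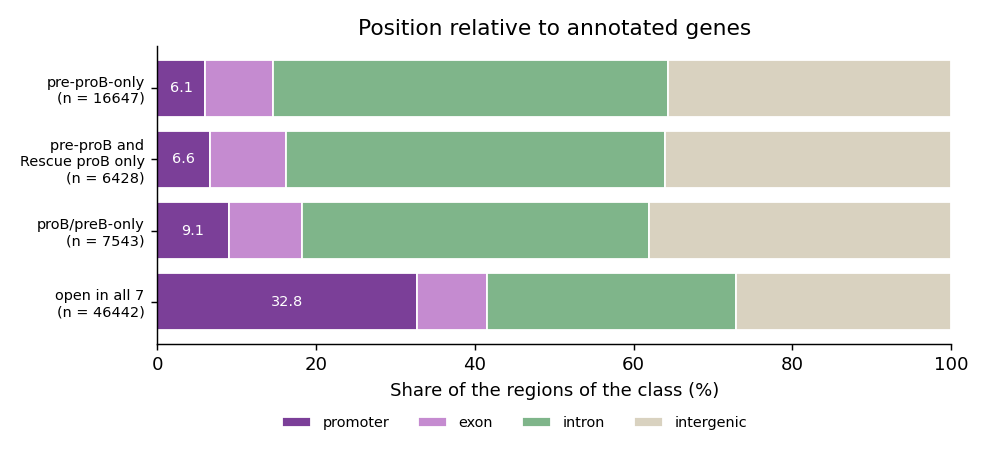
Share of regions (horizontal axis, percent) that overlap a promoter window, an exon, an intron or intergenic sequence, in that order of priority, for 4 classes of region with their numbers. The promoter share was 6.1% in pre-proB-only regions and 32.8% in regions open in all 7 libraries.

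The median distance from the centre of a region to the nearest coding TSS was 29318 bp, with quartiles of 10483 and 75970.5 bp. It was 11768 bp for regions open in all 7 libraries and 29694 bp for those restricted to proB and preB. In all, 3123 regions (18.8%) lay more than 100000 bp from a coding TSS. Another pre-proB-only region lay within 10000 bp of 5798 (34.8%), and the median gap was 19255 bp. Within their own classes, the values were 62.6% and 6540.5 bp for regions open in all 7. For regions restricted to proB and preB they were 27.7% and 30197 bp. The classes differ in their number of regions, and the part of that number in these gaps was not tested. On single chromosomes the regions made up 9.55% (chromosome 10) to 14% (chromosome X) of the union regions.

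The promoter regions were few, and some of them lay at listed genes outside the B lineage. Of the 1012, 478 overlapped promoters of 460 of the 21938 coding genes. The other 534 overlapped only those of other annotated genes such as long non-coding RNAs. For 176 of the 460 genes no promoter window held a region open in any later library. Several listed marker genes were among these 176. Most listed genes are not of the B lineage, so these names are examples and not a result about the regions. Il2rb, the interleukin-2 receptor beta chain of NK and T cells, had pileups of 26, 33 and 39 in WT, Erg KO and Rescue pre-proB. Il1rl1, a receptor of type 2 innate lymphoid cells, had 16, 25 and 25, and Csf3r, the receptor for granulocyte colony-stimulating factor, had 23, 21 and 18. Cox6a2, a cytochrome oxidase subunit known as a marker of plasmacytoid dendritic cells, had 33, 41 and 34. These promoter peaks were weak, and of these 4 only the Cox6a2 and Il2rb peaks had a −log10 q above 10 in all 3 lists. The strongest promoters of coding genes with no later promoter peak were those of 4930564D02Rik (205, 218 and 255), the olfactory receptor gene Olfr458 (151, 178 and 180), the interferon gene Ifna11 (132, 178 and 191) and the adhesion receptor gene Adgrg5 (129, 161 and 170). Ptcra, which encodes the pre-T-cell receptor alpha chain, had 65, 65 and 67. Except for the first, these genes were chosen after their values were seen.

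Each region was then given to the coding gene with the nearest TSS. The 16647 regions fell to 7351 genes of the 17994 with any union region, and 3722 genes had exactly 1. There were 5 or more beside 740 genes, which together took 32.1% of the regions, and 10 or more beside 103 genes with 8.09%. Genes differ in how many regions of any kind they received, so each count is given with the number of union regions of the gene, of which 11.5% would be pre-proB-only if the gene were like the whole.

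Runx2, the transcription factor of bone formation that is also expressed in plasmacytoid dendritic cells (chromosome 17, 44495987 to 44814797, minus strand), had the most, 34 of 121 union regions (28.1%). Of these, 31 lay within the gene body. They were weak, with median pileups of 21.5 in WT, 25 in Erg KO and 21 in Rescue, and when all lists were limited to a −log10 q of at least 10, 12 regions beside Runx2 met the rule. The strongest (chr17:44709669-44711595) lay in intron 5, with pileups of 56, 70 and 55. Runx2 led by nearest TSS only: when regions were counted within gene bodies, Gm20388 had the most with 70, and 4 of the 20 leading genes stayed among the first 20.

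Id2, an inhibitor of E-proteins that is needed for NK and other innate lymphoid cells (chromosome 12, 25093799 to 25097140, minus strand), had 21 of 87 union regions (24.1%). None lay in the short gene itself, and their median distance from its TSS was 217145 bp. The strongest, at chr12:25303285-25303923 in intron 1 of the long non-coding RNA gene Gm47713, had pileups of 79, 100 and 119. With lists limited to a −log10 q of at least 10, Id2 had 19 and led all genes. Its regions were all upstream of the TSS, between 25170514 and 25536316.

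Bcl11a, a zinc-finger repressor of early lymphoid and dendritic progenitors (chromosome 11, 24078056 to 24174123, plus strand), had 21 of 117 (17.9%), with median pileups of 23, 25 and 24. The strongest overlapped exon 2 (chr11:24085066-24085575) with 67, 64 and 86. Tcf4, which encodes the E-protein E2-2 of plasmacytoid dendritic and B cells, had 19 of 117 (16.2%), and Foxp1, a forkhead factor needed in early B cells, 19 of 147 (12.9%), a share close to that of all regions. Under the stricter limit Bcl11a had 11, Tcf4 9 and Foxp1 18.

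Slco3a1, an organic anion transporter gene (chromosome 7, 74275419 to 74554780, minus strand), had 24 of 59 (40.7%), none of its regions being restricted to proB and preB. Median pileups were 34.5, 36.5 and 37.5. Rnd3, which encodes an atypical small GTPase, had 20 of 67 (29.9%), of which 18 were intergenic. Zfp521, a zinc-finger gene of haematopoietic progenitors, had 17 of 46 (37.0%) with median pileups of 31, 42 and 49, and its strongest region reached 145, 138 and 169. Nrp2, a semaphorin receptor gene, had 17 of 57 (29.8%), and Hdac4, a class IIa histone deacetylase gene, 16 of 39 (41.0%). Adra1b, the alpha-1B adrenergic receptor gene, had the highest share among the leading genes, 15 of 23 (65.2%), though 7 under the stricter limit. Large counts did not always mean large shares: Adgrl2 had 18 of 181 (9.94%) and Pde4d, a cAMP phosphodiesterase gene, 16 of 135 (11.9%).

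**Figure D3:**
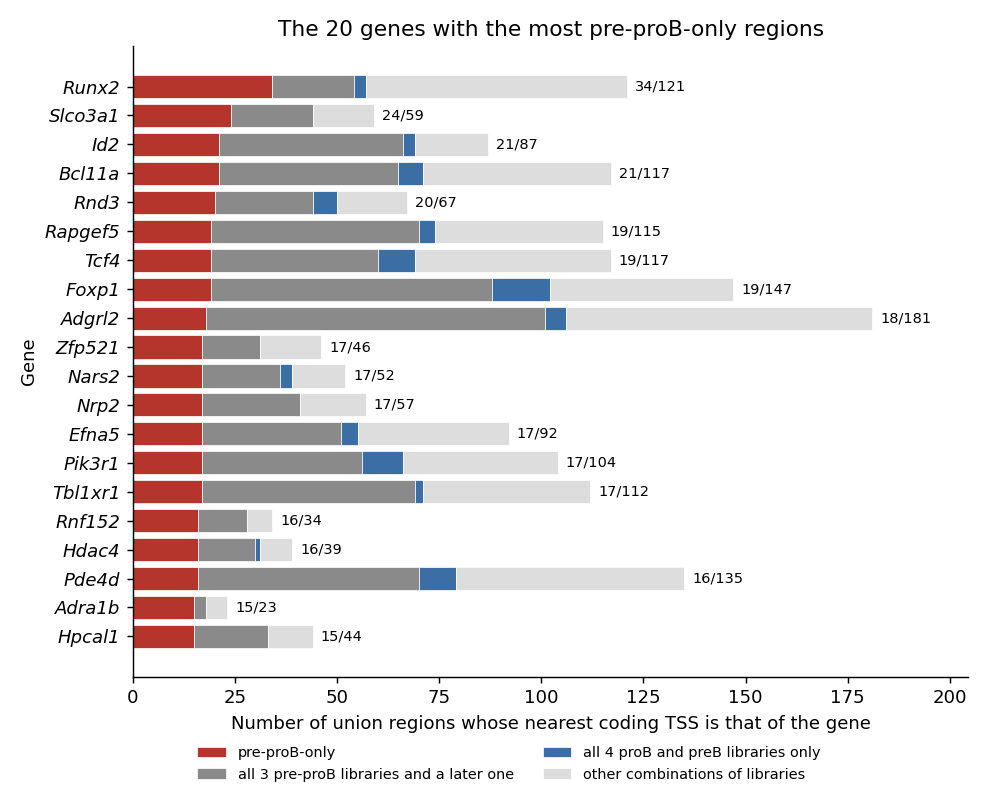
Number of union regions given to each of the 20 genes with the most pre-proB-only regions (horizontal axis), split by the libraries they were open in, with the pre-proB-only count over the total beside each bar. Runx2 had 34 of 121 and Adra1b 15 of 23.

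The remaining leading genes were Rapgef5 (19 of 115), Nars2 (17 of 52), Efna5 (17 of 92), Pik3r1 (17 of 104), Tbl1xr1 (17 of 112), Rnf152 (16 of 34) and Hpcal1 (15 of 44). Hpcal1 had a region in its intron 1 with pileups of 114, 136 and 170, and Nars2 one in intron 4 with 147, 161 and 170. Of 5820 genes with at least 8 union regions, 69 had a pre-proB-only share of 50% or more. They included the listed genes Cxcr3 (6 of 9) and Tbx21 (5 of 8).

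Windows of 500000 bp showed where the regions crowded. The window from 44500001 to 45000000 on chromosome 17, at Runx2 and Supt3, held 34 of 110 union regions. On the same chromosome the window from 15000001 to 15500000 held 24 of 53, of which 13 lay nearest to the Notch ligand gene Dll1 and 9 to Ermard. A window on chromosome 2 (129500001 to 130000000) held 24 of 54, 10 of them nearest to F830045P16Rik, which also had the third strongest region of all. On chromosome 6, 99750001 to 100250000 held 23 of 63 and no coding TSS, and its regions fell to Prok2 and Rybp on either side. The next place was shared by 3 windows with 22 each, at Hpcal1 on chromosome 12, at H2afy on chromosome 13 and at the kallikrein cluster on chromosome 7, where 22 of 47 union regions were pre-proB-only and none was restricted to proB and preB.

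Regions were then counted for 9 lists of lineage genes, with the share of pre-proB-only regions among all union regions of their genes set beside the 11.5% over all regions. The lists were chosen with earlier results of these data known, so their shares are a description, and they differ in how many genes B cells also use. The NK and innate lymphoid list had the highest share, 59 of 229 regions (25.8%, 20.5 to 31.8%), with regions beside 12 of 16 genes. Leaving out Id2, its leading gene, gave 38 of 142 (26.8%). Members of the list included Tbx21, the T-bet gene of type 1 innate cells, with 5 of 8 and median pileups of 19, 24 and 30. Its strongest region lay in intron 1 (chr11:97112576-97113244) at 62, 67 and 88. Ikzf2 (Helios) had 7 of 17, Nfil3 4 of 20 with median pileups of 96.5, 101 and 119, and Eomes 3 of 15. Klrb1c, Gzmb, Il18r1 and Klrk1 had none among 17, 3, 7 and 4 union regions. The list was also counted without the 59 regions, which the rule places in the pre-proB libraries. It then had a peak in 112 to 133 regions in those libraries and in 82 to 117 in the later ones. The 5 regions of the list restricted to proB and preB stayed in the later counts, so these ranges are not a balanced comparison.

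The list of plasmacytoid and other dendritic cell genes had 112 of 611 (18.3%, 15.5 to 21.6%), beside 14 of 16 genes. Without Runx2 it had 78 of 490 (15.9%). Siglech had 4 of 14 with median pileups of 21, 26.5 and 30, Zeb2 12 of 110, Itgax, the CD11c gene, 4 of 14, Irf8 3 of 41 and Clec9a 3 of 8. Bst2 and Spib had none, but only 3 and 2 union regions. Leaving out the 112 regions, 265 to 317 regions of the list had a peak in the pre-proB libraries and 251 to 313 in the later ones. Here too the later counts kept the regions restricted to proB and preB, 35 in this list.

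The stem and progenitor list stood at the level of all regions, with 61 of 512 (11.9%, 9.39 to 15%). Within it, the cytokine receptor genes Kit and Flt3 had 4 of 18 and 5 of 17, Cd34 6 of 25, Meis1 8 of 42 and Mecom 11 of 34. Kit had its strongest region at exon 11 (chr5:75640390-75641191), with pileups of 73 in WT, 131 in Erg KO and 174 in Rescue, so that WT was the lowest of the 3. At Flt3 the strongest region, 9582 bp from its TSS, had 102, 121 and 119. Mecom's strongest, in intron 1, had 47, 83 and 87. Hoxa9, Hlf, Gata2 and Tal1 had none among 4, 13, 5 and 11 union regions.

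The T-lineage list had 33 of 278 (11.9%, 8.58 to 16.2%) and the myeloid list 33 of 273 (12.1%, 8.74 to 16.5%). In the former, Cd8a had 6 of 13 with median pileups of 34, 41.5 and 48.5, Gata3 4 of 29, Tox 5 of 48 and Cd28 3 of 28. Bcl11b, Cd3d, Cd3g, Thy1 and Lck had none among 6, 1, 1, 13 and 7 union regions. Among myeloid genes, Csf1r had 4 of 13, Cebpa 4 of 10, Cebpb 4 of 26 and Ly86 9 of 62, and 9 of the 18 genes had none. Among these 9 were Mpo, Lyz2, Ctsg and Ccr2, with 3, 3, 2 and 12 union regions. The homing and cytokine receptor list gave 40 of 362 (11%, 8.22 to 14.7%), led by Cxcr4 with 9 of 74. Cxcr3, a chemokine receptor gene of activated lymphocytes, had 6 of 9 and a region 3927 bp from its TSS with pileups of 130, 136 and 179. The erythroid and megakaryocyte list had 8 of 80 (10%, 5.15 to 18.5%) and the early response and AP-1 list 19 of 267 (7.12%, 4.6 to 10.8%).

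The B-lineage list had the lowest share, 19 of 495 (3.84%, 2.47 to 5.92%), and 12 of its 20 genes had none. Among these 12, Blnk had 17 union regions, Cd79b 10, Rag1 5, Igll1 4, Cd79a 3, Rag2 2 and Vpreb1 1. For a gene with so few union regions, having no pre-proB-only region says little. Foxo1 had 7 of 81 and Bach2 4 of 93. Ebf1 had 1 of 71, far from its TSS at 451464 bp with pileups of 39, 32 and 41, and Pax5 1 of 40, in intron 7 with 35, 54 and 55. Regions restricted to proB and preB made up 55 of the 495 (11.1%, 8.64 to 14.2%), against 5.19% of all union regions. In the NK and innate lymphoid list they made up 5 of 229 (2.18%, 0.936 to 5.01%). The Erg gene itself had a pre-proB-only region 11272 bp from its TSS (chr16:95597527-95598202), with pileups of 23 in WT, 46 in Erg KO and 41 in Rescue pre-proB.

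**Figure D4:**
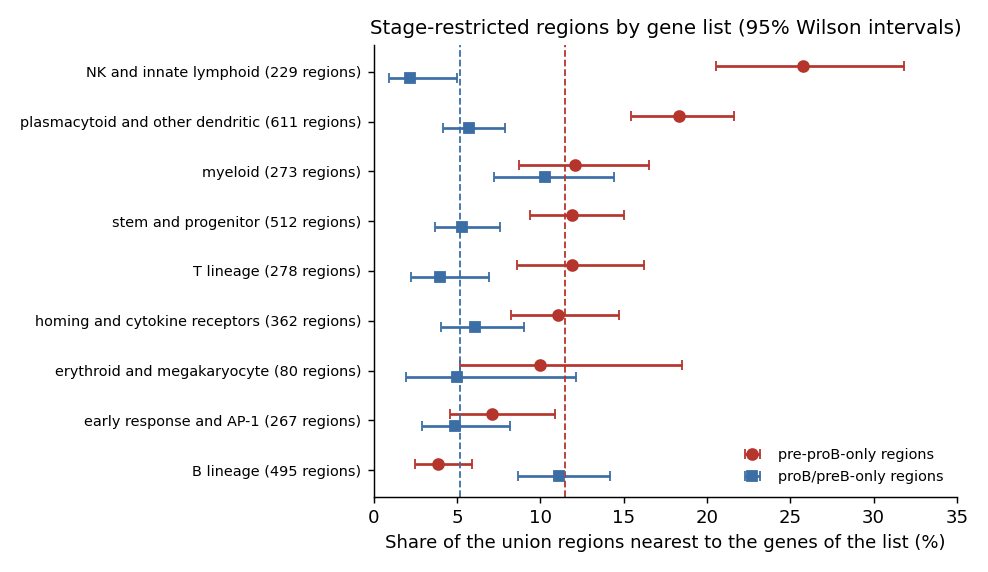
Share of union regions (horizontal axis, percent, with 95% Wilson intervals) that were pre-proB-only (circles) or restricted to proB and preB (squares) for 9 gene lists, with the number of union regions of each list. Dashed lines give the shares over all union regions, 11.5% and 5.19%; the NK and innate lymphoid list had 25.8% and 2.18%, and the B-lineage list 3.84% and 11.1%.

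Regions of a list are not independent, since many share a gene, and the intervals leave that out. The lists were set beside the background as a description, and no list was tested against another.

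DNA sequence was not used by the rule. In 200 bp windows at the WT summits of all 16647 regions, the E-box pattern was found in 3997 (24.0%, 23.4 to 24.7%), RUNX in 2485 (14.9%, 14.4 to 15.5%), IRF in 2159 (13.0%, 12.5 to 13.5%), C/EBP in 1391 (8.36%), PU.1 in 1336 (8.03%) and AP-1 in 1186 (7.12%). None of the 11 patterns was in 6485 windows (39%), against 48.6% of windows open in all 7 libraries. Read backwards without complementing, as a control of the same letters, the E-box, RUNX and IRF patterns were found in 49 (0.294%), 571 (3.43%) and 1661 (9.98%). The reversed E-box contains a CpG, which the E-box does not, and the median window held 2 CpGs. The E-box and its control are therefore not a like comparison. Between RUNX and IRF, the IRF pattern was closer to its control.

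Because promoters differ in base composition, windows outside promoters were compared between classes of region. The RUNX pattern was in 15.2% (14.6 to 15.7%) of 15635 pre-proB-only windows, 11.2% (10.9 to 11.6%) of 31226 windows open in all 7 libraries and 7.77% (7.16 to 8.43%) of 6860 windows restricted to proB and preB. For IRF the shares were 13.0% (12.5 to 13.5%), 9.88% (9.56 to 10.2%) and 6.25% (5.70 to 6.85%), and for the E-box 24.0% (23.3 to 24.6%), 22% (21.5 to 22.5%) and 21.1% (20.2 to 22.1%). These 3 patterns were more frequent in pre-proB-only windows than in either of these classes, with intervals apart. They were more frequent still in the 6001 windows of regions kept in Rescue proB alone, at 20.3% (19.3 to 21.4%) for RUNX, 14.3% (13.4 to 15.2%) for IRF and 27% (25.9 to 28.1%) for the E-box, with the IRF interval overlapping that of pre-proB-only windows. The reversed IRF control fell in the same order, at 10.1%, 8.47% and 5.98%. Over all WT pre-proB regions outside promoters the shares were 13.3% for RUNX, 10.9% for IRF and 22.6% for the E-box. The classes also differ in strength. With promoters included, the WT median percentile was 30.8 for pre-proB-only regions, 65.9 for regions kept in Rescue proB alone and 68.1 for regions open in all 7. The part of strength in these shares was not tested.

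The EBF1 pattern was rare in the regions, in 1.31% (1.14 to 1.5%) of windows, against 3.90% (3.69 to 4.12%) in regions open in all 7 and 17.2% (16.3 to 18.1%) in regions restricted to proB and preB. Its reversed control was in 1.88% of the windows of all 16647 regions, more than the 1.30% with the pattern itself. The OCT pattern followed the same order, at 0.518%, 1.41% and 6.31%. The ETS pattern, which contains a CpG, was in 0.134%, 0.589% and 0.656%. The PU.1 pattern was in 7.99% (7.57 to 8.42%), below the 9.12% (8.81 to 9.44%) of regions open in all 7 and above the 5.82% (5.29 to 6.40%) of the later regions. When promoters were included its order against regions open in all 7 turned, with 8.03% against 7.30%. GATA, TCF, AP-1 and C/EBP patterns outside promoters had intervals overlapping those of the regions open in all 7.

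The E-box share was higher in stronger regions, from 18.7% (17.6 to 19.9%) in the weakest of 4 strength classes, set by lowest percentile, to 30.8% (29.4 to 32.2%) in the strongest. RUNX moved from 13.4% (12.4 to 14.4%) to 15.8% (14.7 to 17.0%) and IRF from 11.9% (10.9 to 12.9%) to 13.5% (12.5 to 14.5%), with overlapping intervals for IRF. With promoters included, RUNX and E-box patterns stood together in 560 pre-proB-only windows (3.36%, 3.10 to 3.65%). The share was 2.01% (1.89 to 2.14%) in windows open in all 7 and 5.35% (4.83 to 5.93%) in regions kept in Rescue proB alone. Each pattern alone differed in the same direction. Whether they met more often than their single shares would give was not tested. Median GC content was 46.5% outside promoters in pre-proB-only regions, 49.5% in those open in all 7 and 48.5% in those restricted to proB and preB, and its part in these shares was not tested.

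**Figure D5:**
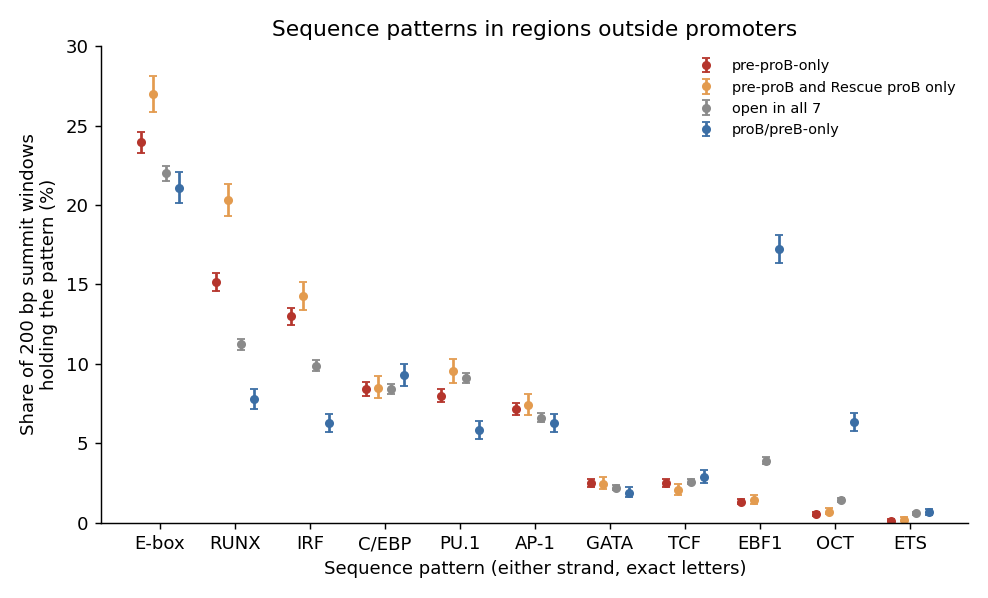
Share of 200 bp summit windows outside promoters (vertical axis, percent, with 95% Wilson intervals) that hold each of 11 sequence patterns (horizontal axis), for 4 classes of region. RUNX was in 15.2% of pre-proB-only windows and 7.77% of windows restricted to proB and preB, whereas EBF1 was in 1.31% and 17.2%.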

How the data were processed

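Nuclei of sorted mouse bone marrow B-cell progenitors were profiled by ATAC-seq in 7 groups with 1 library each. The labels name Tn5 tagmentation, whereas the methods of the study mention sonication. Reads were converted with CASAVA 1.8.2, aligned to mm10 with Bowtie2, filtered with Picard and called with MACS2, per the submitters' processing notes. For the options of the peak caller, no value is known from those notes or the methods. The peak lists deposited by the authors give each peak a fold, its summit pileup over the library background pileup, with 1 added to both. They also give a −log10 p and a −log10 q, both deposited by the authors as written by MACS2. The score deposited by the authors is 10 times that −log10 q, cut to a whole number, and was not used further. Reads outside peaks were not analysed here, and some listed genes and 1 sequence are not reported here.

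Peaks that shared at least 1 bp were merged across the 7 lists. The members and gene lists were chosen with earlier results of these data known. Summit pileups, the number of overlapping fragments, were recovered from the whole steps of the fold, and each list was ranked by −log10 q. Regions were annotated with GENCODE M21 (80996 transcripts, 21938 coding genes, promoters 1000 bp on either side of a TSS) and assigned to the nearest coding TSS. Exact sequence patterns were counted on both strands in 200 bp of GRCm38 at the WT pre-proB summit, or the WT proB summit for regions restricted to proB and preB. Genes named were the 20 with the most regions, the 12 strongest regions, listed genes, and others where said. With 1 library per group no test was made, and 95% Wilson intervals cover counting error only. The counting steps were tested on simulated peaks. Alternatives covered the peak threshold, list length, merging, coverage, annotation, pattern windows and leaving out each library. Python 3.11.15, numpy 2.4.6, pandas 2.3.3, statsmodels 0.14.6 and pysam 0.24.0 were used.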

Additional observations from a re-analysis of the deposited data

How the results depend on the processing

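With 1 library a group, variation between mice is unknown, and a weak open region can fall on either side of the rule. No paired analysis was possible because the results are counts of called peaks and come from no test. With the Rescue stages taken from the source names, 28 regions met the rule, with a promoter share of 14.3% and a median TSS distance of 16605.5 bp. Leaving out each library in turn gave 16830 to 23091 regions, promoter shares of 6.02 to 6.36% and median distances of 28863 to 30321 bp. The highest number and distance came without Rescue proB. Limiting every list to its strongest peaks, as many as the shortest list held, gave 11956 regions, and a −log10 q of at least 10 gave 15556. Counting a peak only where it covered at least 50% of a region gave a promoter share of 6.81%. A promoter window of 2500 bp raised it to 13.7% (39.9% for regions open in all 7), and all annotated genes in place of coding ones shortened the median distance to 13660 bp (5668 bp). Counted by gene body, 55 genes had 10 or more regions in place of 103, and 4 of the 20 leading genes stayed among the first 20. Gm20388 led these counts with 70 regions, given without the number of union regions in its body. Outside promoters, 3 of 11 patterns were more frequent than in regions open in all 7, against 7 with promoters included. The causes of these shifts were not tested.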
